A study of Mus musculus with 2 samples.

Results

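The cells described here are splenic regulatory T cells (Tregs, CD4 T cells that hold other lymphocytes in check) in which mRNA of both Tmem176a and Tmem176b was detected. Droplet single-cell 3′ RNA sequencing had been run on 2 libraries, 1 per group, each from 2 pooled mouse spleens. The CD25WT library came from CD25WT/WT-tdTomato+/+-Foxp3eGFPCretERT2+/+ mice and the CD25KO library from CD25FL/FL-tdTomato+/+-Foxp3eGFPCretERT2+/+ mice. CD25, encoded by Il2ra, is the high-affinity chain of the IL-2 receptor. The mice of both groups received tamoxifen by intraperitoneal injection at 2 mg/kg for 5 days, which activates the Cre recombinase under the Foxp3 promoter, and spleens were taken 10 days after induction. In both groups live cells were sorted on CD4 and on the GFP and tdTomato reporters, and the CD25KO cells were gated further on low CD25, a gate the CD25WT cells did not pass through.

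Cells were kept when they had at least 500 detected genes, at most 10% mitochondrial UMIs, at least 1 UMI (a counted mRNA molecule) of Cd3e or Cd3g and none of Cd79a or Lyz2, which mark B cells and myeloid cells. The cells described were selected on 2 measured values, at least 1 UMI of Tmem176a and at least 1 of Tmem176b, and are called double-positive. They numbered 167 of the 12773 cells kept (1.31%). There were 85 of 5957 cells in CD25WT and 82 of 6816 in CD25KO. Since the levels of these 2 genes chose the cells, they are given as a description. With 1 library per group there were no replicates, so nothing was tested between groups, and every interval below is a 95% interval that covers counting error only.

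Tmem176a and Tmem176b are related 4-transmembrane proteins of intracellular vesicles, with cation channel activity, that resemble the MS4A family. They are known from dendritic cells and from lymphocytes of the type 17 program, to which belong the receptor Ccr6, which follows the chemokine CCL20 to epithelial and lymphoid tissue, and the interleukins IL-17A, IL-17F and IL-22. Some Tregs, best known from the intestine, share part of this program.

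The pair are neighbours on mouse chromosome 6 and are transcribed away from each other. In the GENCODE annotation of mm10, Tmem176b (ENSMUSG00000029810) lies at chr6:48833818-48841496 on the minus strand and Tmem176a (ENSMUSG00000023367) at chr6:48840919-48847071 on the plus strand. Their gene bodies overlap by 578 bases at the 5′ ends, while the 3′ ends, where the libraries count, lie 13253 bases apart. The RefSeq promoter window of Tmem176a (GRCm38.p6, chr6:48841233-48841532, plus strand) holds a start of each gene. It is shown because the 2 genes were detected together, and the capitals mark the 108 bases between a Tmem176b start at 48841374 and the Tmem176a start at 48841483:
Tmem176a promoter: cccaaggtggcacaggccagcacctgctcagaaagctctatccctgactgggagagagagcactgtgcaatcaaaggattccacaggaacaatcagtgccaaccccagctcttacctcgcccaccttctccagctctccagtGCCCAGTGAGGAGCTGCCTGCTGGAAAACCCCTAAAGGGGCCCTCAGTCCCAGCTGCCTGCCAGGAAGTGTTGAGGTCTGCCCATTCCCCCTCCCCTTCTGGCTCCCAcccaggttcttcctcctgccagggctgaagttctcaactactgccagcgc

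The libraries held 6620 and 7530 barcodes with 36971834 UMIs in CD25WT and 36986849 in CD25KO. Double-positive cells were deeper than the others, with a median of 6650 UMIs against 5239 in CD25WT and 6043.5 against 4158 in CD25KO. A gene needs a UMI to be seen, so a rule that asks for UMIs of 2 genes favours deep cells, and shares are therefore also given for cells thinned to 2000 UMIs. The libraries shared 107 barcodes, carried by 32 filtered cells in CD25WT and 34 in CD25KO. No double-positive CD25WT cell carried one, but 2 CD25KO cells did, and these were the 2 deepest of that group, at 72865 and 28621 UMIs. The deepest gave 10.2% of all UMIs of the CD25KO double-positive cells, against 3.87% for the deepest in CD25WT (24291 UMIs). Levels below are sums over cells in counts per 1000000 UMIs (CPM), so that these cells weigh on them, and values without them are given where they matter.

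Detection of one gene went with detection of the other in both libraries. In CD25WT, 50% of the 170 cells with a Tmem176a UMI also held Tmem176b, against 1.23% of the 5787 cells without one. In CD25KO the shares were 50.9% of 161 cells and 1.79% of 6655. Tmem176a alone was found in 85 and 79 cells and Tmem176b alone in 71 and 119 cells, in CD25WT and CD25KO. Cells with no T cell chain and a Cd79a UMI, which should lack both genes, held either gene in 0 of 17 (median 4280 UMIs) and 1 of 22 (median 3990.5 UMIs), and both in none. At a limit of 3 cells, so few and shallow B-type cells allow up to 17.6% and 13.6% with UMIs of both genes.

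Double-positive cells made up 1.43% of filtered cells in CD25WT (1.14 to 1.76) and 1.20% in CD25KO (0.958 to 1.49). Thinned to 2000 UMIs, with 57 and 332 shallower cells left out, the expected shares were 0.495% and 0.375%. Among cells with no Il2ra UMI, which is not the same as low CD25 at the surface, they were 1.27% (49 of 3866) and 1.22% (73 of 6003).

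How much of the pair each double-positive cell held, a value of the rule, is given as a description. In CD25WT the sum of both genes ran from 2 to 33 UMIs with a median of 4, and 14 cells held 10 or more. In CD25KO it ran from 2 to 14 with a median of 3, and 7 cells held 10 or more. The lowest possible sum, 1 UMI of each gene, was found in 22 CD25WT and 26 CD25KO cells. Double-positive cells carried 68.7% of all Tmem176a UMIs of filtered cells and 72.7% of all Tmem176b UMIs in CD25WT, and 62.7% and 53.9% in CD25KO.

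The cells were T cells by their markers, and a Foxp3 UMI was seen in a minority of them, as in the other cells. A UMI of Cd3d was present in 78 of 85 and 81 of 82 double-positive cells, and one of Cd4 in 48 and 48. In the other cells Cd3d was found in 98.2% and 96.6%, and Cd4 in 44.1% and 50.3%. The Cd3d level was lower in the double-positive cells, at log2 ratios of -0.31 (-0.44 to -0.19) in CD25WT and -0.37 (-0.48 to -0.26) in CD25KO. Foxp3, the transcription factor that defines Tregs, is sparse in these libraries. In CD25WT it was seen in 22.4% of double-positive cells against 16.0% of the others, and at 2000 UMIs the shares were 6.56% and 6.60%. In CD25KO it was seen in 6.10% against 10.1%, or 3.31% against 4.85% at 2000 UMIs. The Foxp3 level was 33.5 CPM against 34.4 in CD25WT, a log2 ratio of -0.04 (-0.74 to 0.58). In CD25KO it was 9.84 against 21.9 CPM, a log2 ratio of -1.16 (-2.48 to -0.11) that rests on 5 cells. Il2ra, the targeted gene, was level in CD25WT, at 126 CPM in double-positive and 125 CPM in other cells. In CD25KO it stood at 16.9 and 32.4 CPM. The sources used here do not name the exons that the floxed allele loses, and a 3′ tag outside them checks nothing.

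Ccr6 detection grew with the amount of Tmem176a and Tmem176b in a cell, in CD25WT on both sides of the rule's threshold. In CD25WT a Ccr6 UMI was found in 2.73% of cells with neither gene, 12.9% with Tmem176a alone and 7.04% with Tmem176b alone. It was found in 22.7% of the 22 cells with 1 UMI of each, 40.7% of the 27 cells with 3 to 5 UMIs and 77.8% of the 36 cells with 6 or more. The CD25KO shares were lower at each step inside the threshold, at 7.69% of 26 cells, 15.4% of 39 and 52.9% of 17. Just outside it they were 2.53% and 4.20%, near the 3.61% of cells with neither gene. The name Ccr6-type thus described most of the CD25WT cells rich in the pair, and a smaller share of the CD25KO cells. The median depth was 5957, 6855 and 6487 UMIs in the 3 CD25WT classes and 5832.5, 5842 and 7842 in the CD25KO classes, so in CD25KO the class richest in the pair was also the deepest.

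**Figure D1:**
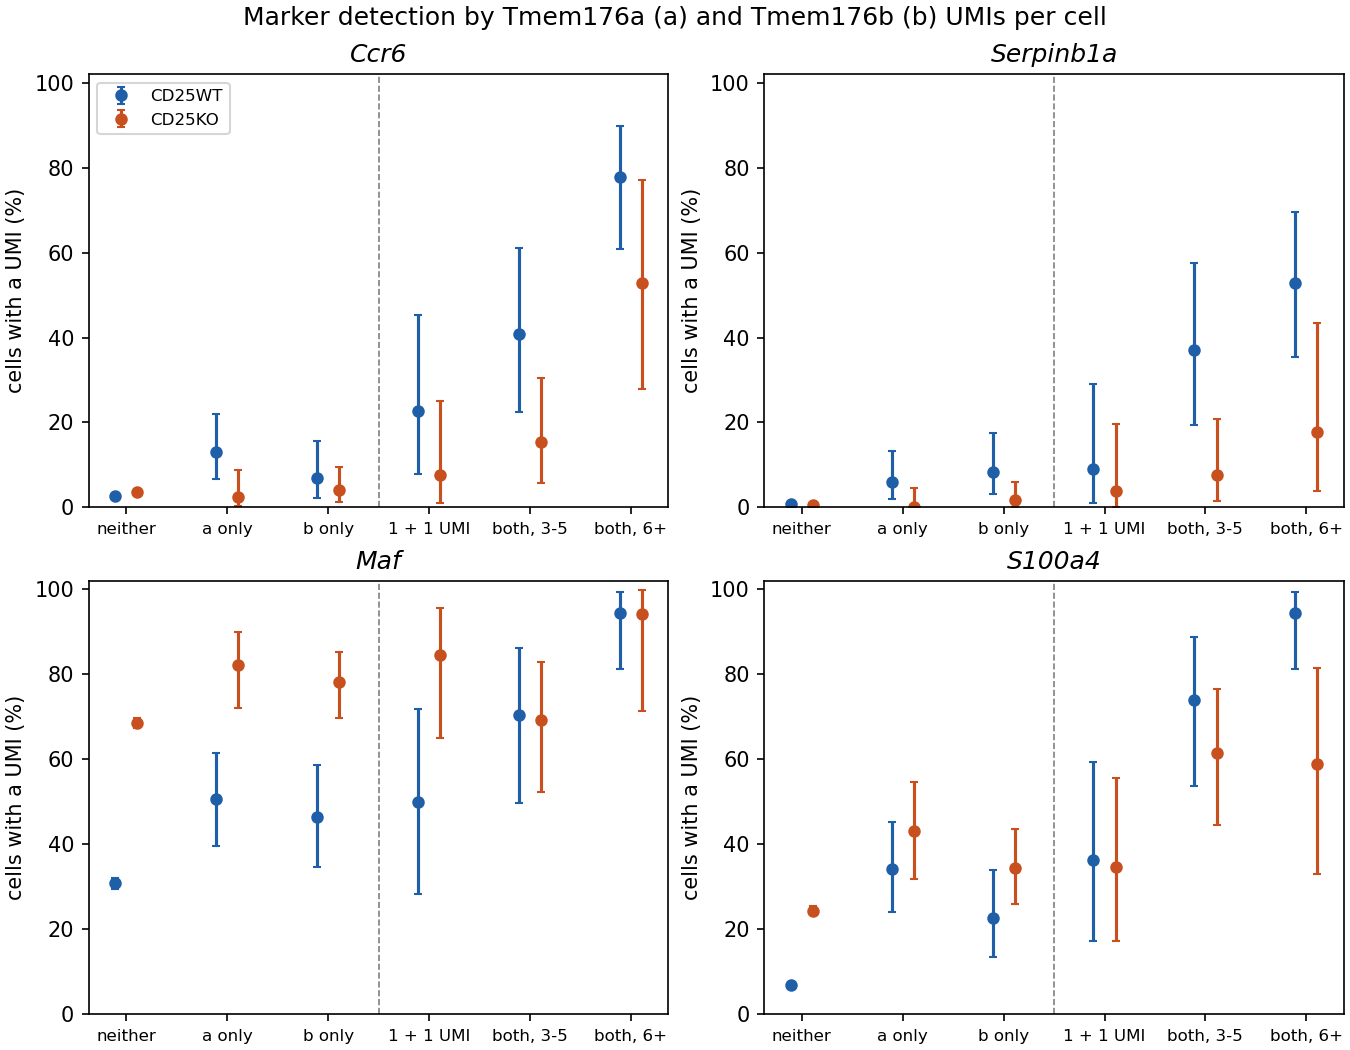
Share of cells (%) with at least 1 UMI of Ccr6, Serpinb1a, Maf or S100a4, by UMIs of Tmem176a (a) and Tmem176b (b) in the cell; points are shares per library, bars exact 95% binomial intervals, and the dashed line the threshold of the rule. The Ccr6 share reaches 77.8% in CD25WT and 52.9% in CD25KO in cells with 6 or more UMIs of the pair.

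Type 17 genes were higher in the double-positive cells, more of them in CD25WT than in CD25KO, and the interleukins of the program had no UMI. Ratios are given as the log2 of the summed CPM in double-positive over other cells of the same library, and a gene counts as measured at a mean of at least 20 CPM over both. Of 4935 genes measured in CD25WT, 238 (4.82%) were higher by 2-fold or more and 73 (1.48%) lower by as much. In CD25KO, 148 (2.79%) of 5312 were higher and 82 (1.54%) lower. Scaling moved the split: with totals that leave out ribosomal protein and mitochondrial genes, 276 were higher and 238 lower in CD25WT, and 203 and 177 in CD25KO. Median-of-ratios factors gave 184 and 124 in CD25WT. Weighting the other cells to the depth of the double-positive cells left 236 and 72 in CD25WT but 22 and 25 in CD25KO. Of the 13 type 17 genes reported here, 10 had a UMI in each library. The interval of the ratio lay above 0 for 9 in CD25WT and for 5 in CD25KO (Ccr6, Serpinb1a, Aqp3, Il17re and Rora), and below 0 for none. How many of all genes have an interval that leaves out 0 was not counted. Such counts, here and for the lists below, thus describe the lists without a background. Of the 7 type 17 genes that count as measured in CD25WT, 5 pass that minimum only through the double-positive cells where they are high, so their number past 2-fold is no result. For the same reason the medians of these 7 genes are given only as a description. They were 3.07 in CD25WT and 0.61 in CD25KO, where the medians over all genes were 0.16 and 0.01. Over the 4 measured in CD25KO the median was 0.22, and with no minimum it was 1.26.

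Ccr6 (ENSMUSG00000040899, chr17:8236043-8257141 on the plus strand in mm10) stood at 151 CPM in the CD25WT double-positive cells and 6.52 CPM in the others, a log2 ratio of 4.54 (4.17 to 4.89). In CD25KO it stood at 33.7 and 9.01 CPM, a ratio of 1.90 (1.24 to 2.50). It was seen in 44 of 85 CD25WT cells, with up to 6 UMIs in a cell, and in 17 of 82 CD25KO cells, with up to 4. At 2000 UMIs per cell those shares were 24.9% against 1.16% of other cells, and 10.2% against 1.61%. Both libraries thus had more Ccr6 in double-positive than in other cells, and the distance was wider in CD25WT.

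Serpinb1a (chr13:32842092-32851185, minus strand), an inhibitor of neutrophil serine proteases, followed the same order. Its level was 107 CPM against 3.26 in CD25WT, a ratio of 5.03 (4.57 to 5.48), and 18.3 against 1.82 in CD25KO, a ratio of 3.32 (2.34 to 4.20). It has close paralogs among which reads could be split, and these were near 0: Serpinb1b had 1 UMI and Serpinb1c none in all 167 cells. Aqp3, a channel for water and glycerol, had ratios of 3.07 (2.40 to 3.69) and 2.56 (1.56 to 3.42).

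Il17re, a subunit of the receptor for IL-17C, was sparse but almost absent outside these cells. It had 7 UMIs in 6 double-positive CD25WT cells and 6 UMIs in 5 CD25KO cells. Among the others it was at 0.117 and 0.0579 CPM, and the ratios were 6.57 (4.59 to 8.79) and 7.19 (4.70 to 10.5). Il23r, a subunit of the IL-23 receptor, had 3 UMIs in 1 CD25WT cell and none in CD25KO cells.

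A second set of type 17 genes, grouped after their values were seen, was higher in the double-positive cells of CD25WT and less than 2-fold apart in CD25KO. Ltb4r1, the receptor for the chemoattractant leukotriene B4, stood at 68.5 against 1.35 CPM in CD25WT (ratio 5.66, 5.03 to 6.30) and at 5.62 against 3.68 CPM in CD25KO (0.61, -1.29 to 2.00). Rora, a transcription factor of the nuclear receptor family, had ratios of 2.74 (2.44 to 3.02) and 0.53 (0.20 to 0.83). The transcription factor Maf stood at 575 against 200 CPM in CD25WT (ratio 1.53, 1.37 to 1.68), and at 606 against 644 CPM in CD25KO (-0.09, -0.23 to 0.05). Ahr, a receptor for aryl hydrocarbons, had ratios of 1.60 (0.91 to 2.21) and -0.25 (-0.95 to 0.37). Il17a, Il17f and Il22 had no UMI in any filtered cell of either library, which, at a limit of 3 cells, allows up to 3.53% of CD25WT and 3.66% of CD25KO double-positive cells with a UMI. That limit does not cover cells that express them without a captured UMI.

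**Figure D2:**
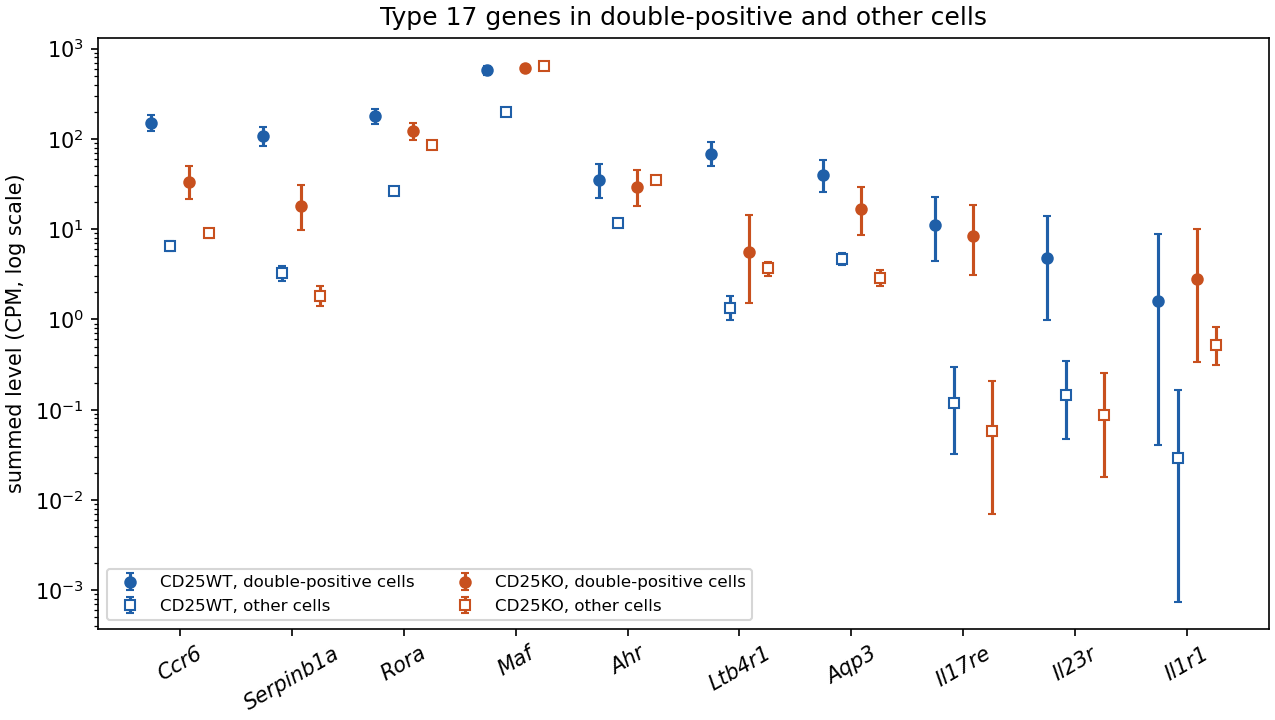
Summed level (CPM, log scale) of type 17 genes in double-positive (filled circles) and other cells (open squares) of each library, with exact 95% Poisson intervals; a gene with no UMI in a set of cells has no point there. Ccr6, Serpinb1a, Aqp3 and Il17re lie above the other cells in both libraries, and Maf in CD25WT but not in CD25KO.

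Ccr6 and Serpinb1a were both found in 25 CD25WT double-positive cells, with 25 more holding just one of them, but in CD25KO both were found in 3 and just one in 18. At least 1 UMI of either was held by 50 of 85 CD25WT double-positive cells (58.8%, 47.6 to 69.4) and by 21 of 82 CD25KO cells (25.6%, 16.6 to 36.4), against 216 of 5872 and 277 of 6734 other cells. As a share of all filtered cells these 50 and 21 cells made up 0.839% (0.624 to 1.11) in CD25WT and 0.308% (0.191 to 0.471) in CD25KO. Among double-positive cells with no Il2ra UMI the shares were 57.1% of 49 in CD25WT and 24.7% of 73 in CD25KO. Over all filtered cells both genes were found together in 41 CD25WT and 6 CD25KO cells.

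Splitting the cells by these 2 genes, a split chosen after their values were seen, set apart 2 unlike groups of CD25WT cells. S100a4, a calcium-binding protein of effector and migrating T cells, was present in 49 of the 50 CD25WT cells with a UMI of either gene and in 13 of the 35 without. Maf was present in 47 of 50 and 17 of 35, and Ccr2, a receptor for monocyte-attracting chemokines, in 37 of 50 and 8 of 35. Ccr7, the lymph node homing receptor, ran the other way, at 5 of 50 and 11 of 35. The median depth was 6811 and 6630 UMIs. In CD25KO the 21 and 61 cells were closer to each other, with S100a4 in 13 of 21 and 30 of 61, Maf in 20 of 21 and 45 of 61 and Ccr2 in 10 of 21 and 11 of 61. Their median depth was 4725 and 6083 UMIs.

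Most genes of the effector Treg list were higher in the CD25WT double-positive cells. Of 16 effector genes, the interval lay above 0 for 13 in CD25WT and for 7 in CD25KO, and below 0 for 1 (Ccl5) and 5. Over the 13 genes measured in either library, 10 were higher by 2-fold or more in CD25WT (4.82% of all genes) and Ccl5 lower (1.48%), and the median was 3.06. In CD25WT 2 of the genes, Ccr2 among them, pass the minimum only through the double-positive cells, and Gzmb passes it only in CD25KO. The CD25WT number and median are therefore given as a description. In CD25KO 3 were higher (S100a4, Lgals1 and Lgals3; 2.79% of all genes), 3 lower (Ccl5, Gzmb and Nkg7; 1.54%) and the median was 0.17. Ccl5, a chemokine of cytotoxic and effector T cells, had ratios of -4.44 (-9.74 to -1.95) from 1 UMI in CD25WT and -4.74 (-6.06 to -3.70) from 7 UMIs in CD25KO. S100a4 stood at 2738 CPM against 119 in CD25WT, with a median of 12 and up to 96 UMIs per double-positive cell, a ratio of 4.52 (4.44 to 4.60). In CD25KO it stood at 1269 against 592 CPM, with a median of 1 and up to 84 UMIs, a ratio of 1.10 (1.0 to 1.2). The CD25KO level was lower in double-positive cells and higher in the others, so both sides narrowed the ratio.

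Chemokine receptors set the double-positive cells apart in opposite directions. Of 7 measured in CD25WT, Ccr2, Cxcr6, Ccr6 and Ccr4 were higher by 2-fold or more (4.82% of all genes). Ccr7 and Cxcr3 were lower by as much (1.48%). The 4 higher ones pass the minimum only through the double-positive cells, and Cxcr3, at 12.7 against 31.2 CPM, only through the others. These counts are therefore given as a description. Of the same 7 in CD25KO, Ccr6 and Ccr4 were higher (2.79% of all genes) and none lower (1.54%). Both pass the minimum there only through the double-positive cells. Ccr2 stood at 349 against 9.07 CPM in CD25WT (ratio 5.27, 5.01 to 5.52) and 80.1 against 52.5 CPM in CD25KO (0.61, 0.20 to 0.99). Cxcr6, the receptor for CXCL16, stood at 172 against 4.43 CPM (5.28, 4.91 to 5.64) and 42.2 against 39.5 CPM (0.09, -0.48 to 0.61). Ccr4, a receptor used in homing to skin and other tissues, was higher in both, at 3.35 (2.85 to 3.81) and 1.57 (0.99 to 2.11). Ccr7 was lower in both, at -1.81 (-2.43 to -1.24) and -0.68 (-1.27 to -0.14), as was Cxcr3, the type 1 chemokine receptor, at -1.29 (-2.50 to -0.31) and -0.48 (-0.91 to -0.08).

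Cytokine receptors went both ways in CD25WT. Of 9 measured, Il18r1, for IL-18, was at least 2-fold higher (4.82% of all genes). Il6st, the shared chain of the IL-6 receptor family, was lower by as much (1.48%), and the median was -0.11. None of 9 was 2-fold apart in CD25KO, where 2.79% of all genes were higher and 1.54% lower. Il6st had ratios of -1.31 (-2.15 to -0.58) and -0.50 (-1.11 to 0.04), and Il21r, for IL-21, -0.85 (-1.39 to -0.36) and -0.43 (-0.90 to 0.01). Il18r1 stood at 225 against 35.4 CPM (ratio 2.67, 2.40 to 2.92), and at 111 against 81.0 CPM in CD25KO (0.45, 0.11 to 0.78). Il7r, for IL-7, stood at 771 against 398 CPM in CD25WT and at 405 against 456 CPM in CD25KO, where its direction turned under several alternatives (0.51 with the other cells weighted to the same depth). Thy1, the T cell surface glycoprotein, had ratios of 1.02 (0.84 to 1.20) and 0.44 (0.21 to 0.65). Of 7 CD4 T cell genes, Thy1 alone had an interval above 0 in each library, while 3 had one below 0. Il10 and Areg, products of suppressive and tissue-repair Tregs, were rare, with a UMI of either in 0 of 85 and 2 of 82 cells. They were rare in the other cells too, with Il10 in 10 of 5872 and 123 of 6734, and Areg in 49 and 245. Each such share is below 3 double-positive cells (3.53% and 3.66%), so the share with a UMI does not set these cells apart. In CD25KO the Areg level was 5.62 against 16.5 CPM in other cells. Il10 had no UMI there, where 3 UMIs are 4.22 CPM, against 8.43 CPM.

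In both libraries together, 40 of 4720 genes (0.847%) were higher by 2-fold or more and 18 (0.381%) lower by as much. The 12 higher genes with the largest ratio shared by the libraries were Ccr6, Ccr4, Emp1, Nebl and 8 genes of the cell cycle. Emp1, a small membrane protein of the tetraspan type, stood at 39.8 against 1.67 CPM in CD25WT and 40.8 against 11.5 CPM in CD25KO. Nebl, which encodes an actin-binding protein, stood at 100 against 3.67 and 38.0 against 12.1 CPM. The ratios were 4.57 and 4.77 in CD25WT and 1.83 and 1.65 in CD25KO. Nebl was seen in 35 of 85 and 18 of 82 double-positive cells.

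**Figure D3:**
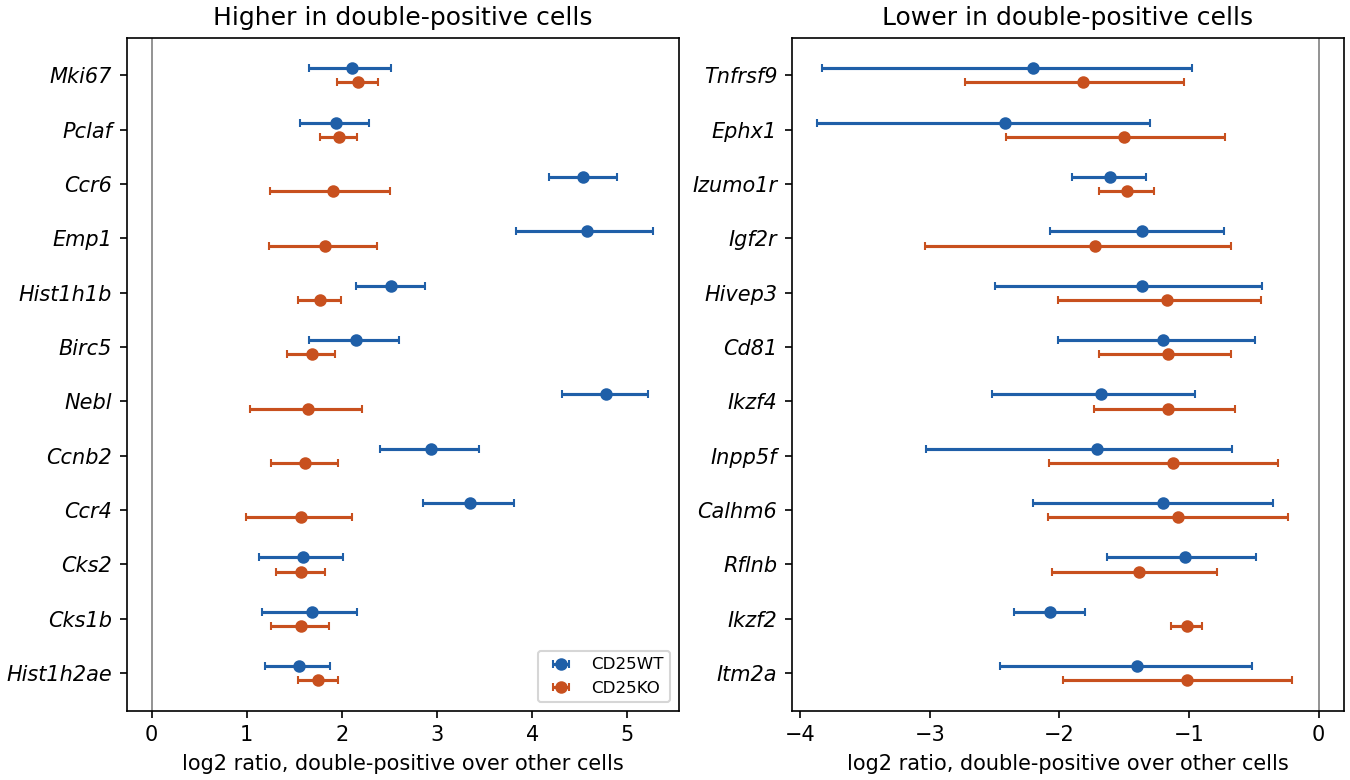
Log2 ratio of double-positive over other cells for the 12 genes in each direction with the largest ratio shared by both libraries; points are ratios of summed CPM and bars exact 95% Poisson intervals. Ccr6, Emp1, Nebl and Ccr4 lie above 3 in CD25WT and below 2 in CD25KO, while Ikzf2 is -2.07 and -1.02. Ccr6, Emp1, Nebl and Ccr4 pass the minimum only through the double-positive cells.

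The genes lower in both libraries included several of the Treg core. Ikzf2, which encodes Helios, a transcription factor of thymus-derived Tregs, stood at 180 against 756 CPM in CD25WT (ratio -2.07, -2.35 to -1.80) and 810 against 1639 CPM in CD25KO (-1.02, -1.14 to -0.90). It was seen in 31.8% of double-positive and 69.6% of other CD25WT cells, and in 73.2% and 86.5% in CD25KO. Despite more UMIs per cell, Helios was thus found in a smaller share of the double-positive than of the other cells in both libraries. Its relative Ikzf4, encoding Eos, had ratios of -1.68 (-2.52 to -0.96) and -1.16 (-1.73 to -0.65). Izumo1r, encoding folate receptor 4, a surface marker of Tregs, had ratios of -1.61 (-1.90 to -1.34) and -1.48 (-1.70 to -1.27).

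Of the 13 genes of the Treg identity list, the interval lay below 0 for 7 in CD25WT and 11 in CD25KO, and above 0 for 2 and 1. The share of all genes with such an interval was not counted. Over the 12 measured in either library, 4 were lower by 2-fold or more in CD25WT (Ikzf2, Ikzf4, Izumo1r and Gpr83; 1.48% of all genes) and 2 higher (Capg and Itgae; 4.82%). In CD25KO 7 of them were lower (Ikzf2, Ikzf4, Izumo1r, Nrp1, Gpr83, Itgae and Foxp3; 1.54%) and none higher. The medians were -0.29 and -1.09. Itgae, at 5.75 CPM in the other CD25WT cells, passes the minimum only through the double-positive cells of CD25WT. Tnfrsf9, the costimulatory receptor 4-1BB, had ratios of -2.20 (-3.83 to -0.98) and -1.82 (-2.73 to -1.04). The others lower in both were Ephx1, Igf2r, Hivep3, Cd81, Inpp5f, Calhm6, Rflnb and Itm2a, with ratios from -2.42 to -1.03 in CD25WT and from -1.72 to -1.02 in CD25KO. Among cells with no myeloid or dendritic UMI, Cst3 included, which leaves 24 CD25WT and 34 CD25KO double-positive cells, Igf2r was at 0.28 in CD25WT and Itm2a at 0.55 in CD25KO.

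Genes of central, recirculating Tregs leaned lower in CD25WT. Of 9 measured, Ccr7 and Igfbp4 were at least 2-fold lower (1.48% of all genes) and none higher (4.82%). The median was -0.84, which was -0.29 when cells with either gene were taken and -0.16 among cells with no myeloid or dendritic UMI. Klf2, a transcription factor of T cell recirculation, lay on the other side, with ratios of 0.70 (0.58 to 0.83) in CD25WT and 0.81 (0.67 to 0.94) in CD25KO. In CD25KO none of 8 was 2-fold apart (2.79% of all genes higher, 1.54% lower), and the median was -0.07, with either sign among the alternatives.

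**Figure D4:**
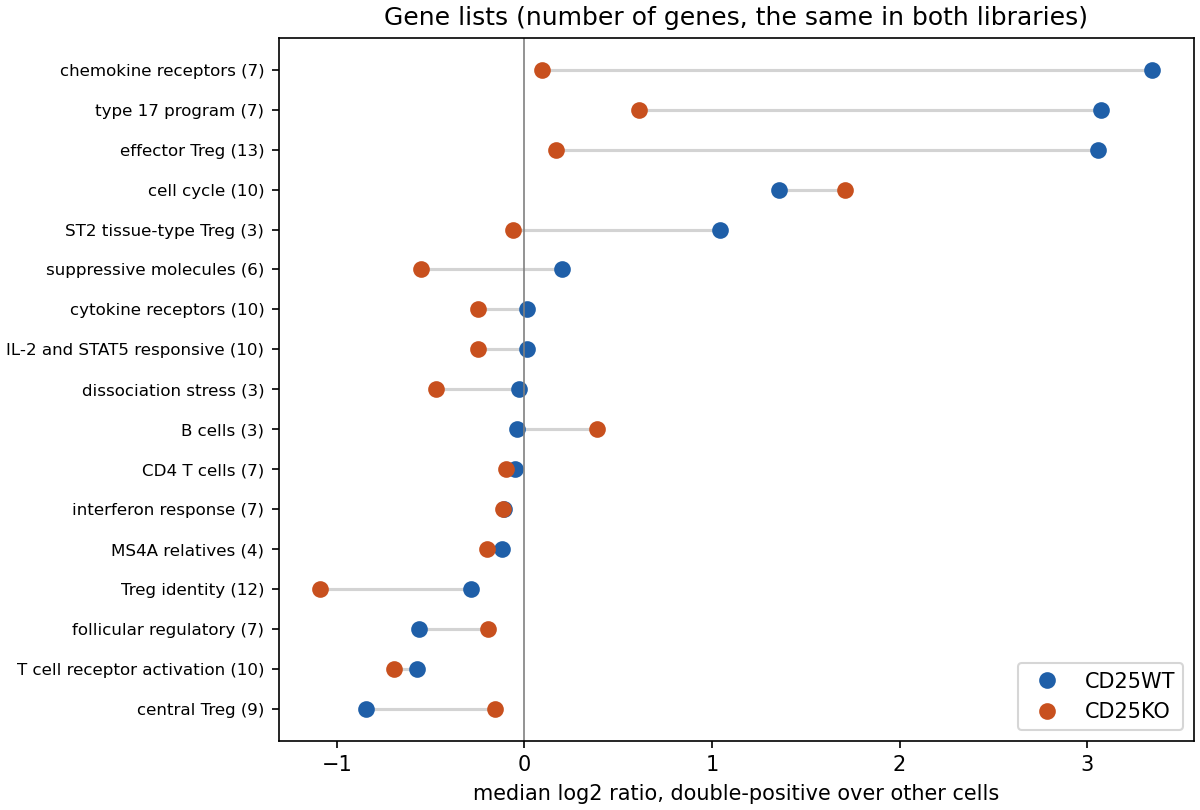
Median log2 ratio of double-positive over other cells for gene lists with at least 3 genes measured in either library; both points of a list are over the same genes, whose number follows its name. Chemokine receptors, the type 17 program and effector genes have medians of 3.35, 3.07 and 3.06 in CD25WT and of 0.09, 0.61 and 0.17 in CD25KO; most of the type 17 genes and chemokine receptors high in CD25WT pass the minimum only through the double-positive cells.

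Cell cycle genes were higher in the double-positive cells of both libraries, but their size moved with depth. The direction of some of them turned under alternatives given at the end, mostly in CD25KO. Mki67, a marker of cells in cycle, stood at 79.7 against 18.6 CPM in CD25WT (ratio 2.10, 1.66 to 2.52) and 271 against 60.4 CPM in CD25KO (2.17, 1.95 to 2.38). Of the 10 cycle genes, the interval lay above 0 for 8 in CD25WT and 10 in CD25KO, and the medians of the measured ones were 1.64 and 1.71. Of the 8 and 10 measured, 4 and 1 pass the minimum only through the double-positive cells. When the other cells were weighted to the depth of the double-positive cells, the medians were 0.61 and 0.17, and Mki67 had ratios of 1.11 and 0.63. Without the 5% of cells with most UMIs the medians were 3.15 and 0.49. A UMI of Mki67 or Top2a was found in 25 of 85 and 20 of 82 double-positive cells. At 2000 UMIs those shares were 13.0% against 2.65% in CD25WT and 14.5% against 6.96% in CD25KO.

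The other cycle genes among the 12 were Pclaf, Birc5, Ccnb2, Cks1b, Cks2, Hist1h1b and Hist1h2ae, with ratios from 1.55 to 2.94 in CD25WT and from 1.57 to 1.97 in CD25KO. The 2 histone genes rested on few deep cells. Without the deepest double-positive cell of each library Hist1h1b was 0.80 and 1.22, and Hist1h2ae was -0.58 in CD25WT and 0.86 in CD25KO. With every cell holding Mki67 or Top2a left out, the type 17 median over the genes measured in each library was 3.41 in CD25WT and 0.38 in CD25KO.

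Between the libraries, several type 17 genes and chemokine receptors were lower in the double-positive cells of CD25KO than in those of CD25WT. Of 5180 genes measured over the double-positive cells of both libraries, 320 (6.18%) were higher in CD25KO by 2-fold or more and 157 (3.03%) lower by as much. With totals that leave out ribosomal protein and mitochondrial genes the counts were 452 and 331. In the other cells 170 (3.36%) of 5066 were higher and 29 (0.572%) lower. Of 7 type 17 genes measured in the double-positive cells, Ccr6, Serpinb1a, Ltb4r1 and Aqp3 were at least 2-fold lower, and Rora (-0.55), Maf (0.08) and Ahr (-0.25) were less than 2-fold apart. Serpinb1a, Ltb4r1 and Aqp3, at 18.3, 5.62 and 16.9 CPM in CD25KO, pass the minimum only through the CD25WT double-positive cells, where they are high. The number of type 17 genes past 2-fold is therefore given as a description. In the other cells Rora, Maf and Ahr were at 1.66, 1.69 and 1.60, Ltb4r1 at 1.45, and Aqp3 at -0.72. Of 7 chemokine receptors measured in the double-positive cells, Ccr2, Ccr6 and Cxcr6 were at least 2-fold lower and Cxcr3 higher by as much, with a median of -0.84. Cxcr3, at 12.7 CPM in the CD25WT double-positive cells, passes the minimum only through those of CD25KO. The CD25KO gate on low CD25, the genotype and the library cannot be told apart in these ratios.

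Ccr6 had a CD25KO over CD25WT log2 ratio of -2.17 (-2.88 to -1.51) in the double-positive cells and 0.47 in the others. Serpinb1a had -2.55 (-3.53 to -1.68) and -0.84. Ccr2 had -2.12 (-2.57 to -1.70) against 2.53 in the others, Cxcr6 -2.03 (-2.66 to -1.43) against 3.15, and S100a4 -1.11 (-1.23 to -0.99) against 2.31. For these 3 genes, and for Ccr6, the double-positive cells and the others lay on opposite sides of 0. Without the deepest double-positive cell of each library the ratios within double-positive cells were -2.04 for Ccr6, -1.95 for Ccr2 and -0.93 for S100a4. Without cells holding Mki67 or Top2a they were -1.24, -0.76 and -0.40.

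The 10 genes furthest below CD25WT were led by Stmn2, Anxa1 and Ltb4r1. All 10 lie under the minimum in the CD25KO double-positive cells and pass it only through those of CD25WT, where they are high. Their ranking is therefore given as a description. Stmn2, which encodes a microtubule regulator known from neurons, had 50 UMIs in 8 CD25WT cells (79.7 CPM) and none in CD25KO. Against a floor of 3 UMIs over the CD25KO cells it was at least 18.9-fold lower. Anxa1, encoding annexin A1, a phospholipid-binding regulator of inflammation, stood at 95.6 CPM in 23 CD25WT cells and 4.22 CPM in 1 CD25KO cell, a ratio of -4.50 (-6.82 to -2.89). Ltb4r1 followed at -3.61 (-5.55 to -2.15), and Lmna, which encodes the nuclear lamins A and C, at -3.42 (-4.79 to -2.29). Actn2, an actinin, was seen in 24 and 5 cells, with a ratio of -3.01 (-4.07 to -2.09) against -0.01 in the others.

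Itgae, the integrin chain CD103 that binds epithelial E-cadherin, stood at 57.4 CPM in 20 CD25WT cells and 7.03 CPM in 4 CD25KO cells. Its ratio was -3.03 (-4.74 to -1.67) in the double-positive cells and 1.76 in the others. The other genes of this group were St8sia6, Tktl1, Gstp1 and Mtmr9, at -3.40, -3.13, -3.10 and -2.99. Mtmr9 was as far apart in the other cells, at -2.70, and Gstp1, which has a close paralog, was at -1.63 there.

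The 10 genes furthest above CD25WT included Nusap1, Ccnb1, Ckap2l, Cenpf and Bora, which take part in mitosis or the entry into it, with ratios from 3.14 to 5.19. These rested on 5 to 15 CD25KO cells each, and on 2 UMIs each in CD25WT, or 12 for Cenpf. In the other cells the same genes, in this order, were also higher, at 1.78, 2.53, 2.19, 2.24 and 0.50. The remaining genes were Sostdc1, Nrn1, Plekho1, G2e3 and Tox2, with ratios from 3.19 to 4.42, and had 2 or 3 UMIs each in CD25WT. In the other cells their ratios ran from 0.53 to 1.84. All 10 genes furthest above CD25WT pass the minimum only through the CD25KO double-positive cells, where they are high. Their ranking too is given as a description. Sostdc1, a secreted inhibitor of BMP signalling, had its 73 UMIs in 3 CD25KO cells. Tox2, a transcription factor of follicular T cells, was seen in 16 CD25KO and 2 CD25WT cells. Ikzf2 was also higher in CD25KO, at 2.17 (1.88 to 2.47) in the double-positive cells and 1.12 in the others. Cxcr3 stood at 2.46 (1.38 to 3.75) and 1.66.

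**Figure D5:**
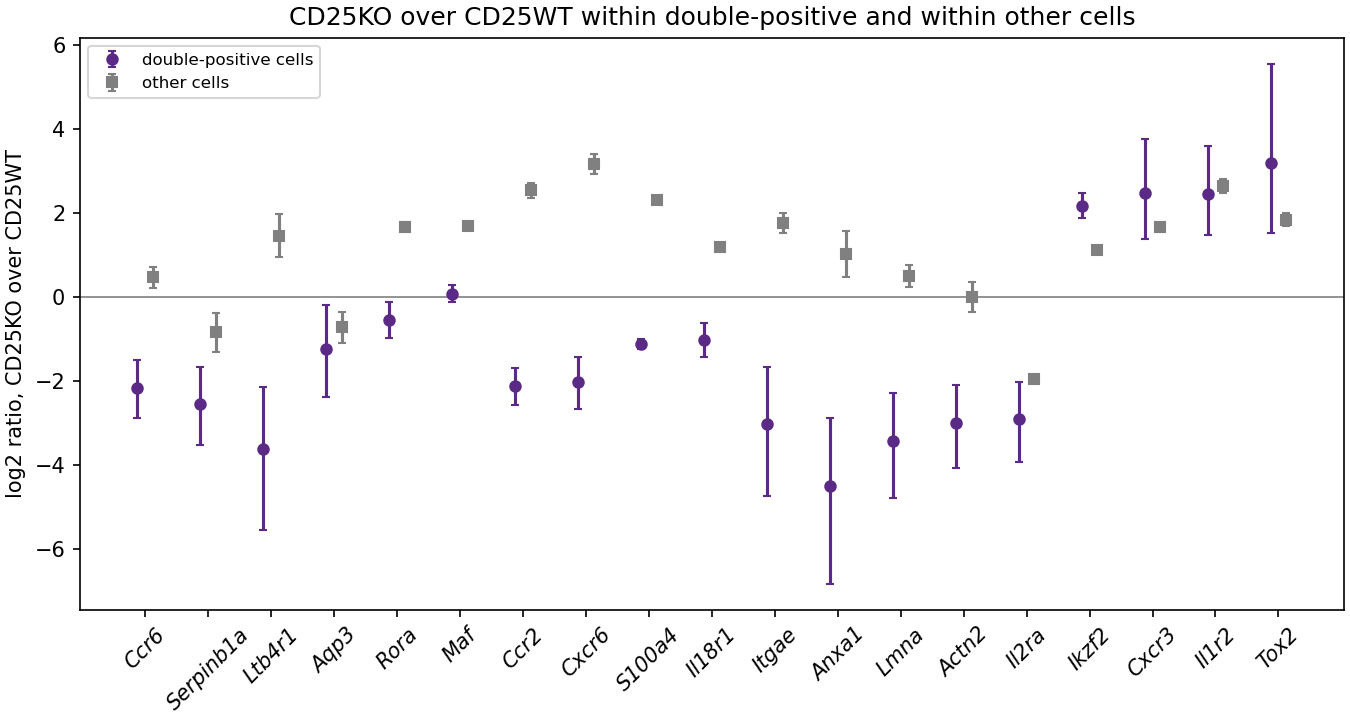
Log2 ratio of CD25KO over CD25WT summed CPM within double-positive cells (circles) and within other cells (squares) for 19 genes of the text; bars are exact 95% Poisson intervals. Ccr6, Ccr2, Cxcr6, S100a4 and Itgae lie below 0 in double-positive cells and above 0 in the others.

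Markers of other lineages were in part found in the double-positive cells. Of 23 myeloid and dendritic genes, 20 had no UMI in CD25WT and 17 none in CD25KO, among them Tyrobp, Itgax and Csf1r. In the other cells these genes were also under the level of 3 UMIs in the double-positive cells (4.78 and 4.22 CPM), so a 0 says little. The summed level of the list was 386 CPM against 313 in other cells in CD25WT and 347 against 404 in CD25KO. That level was mostly Cst3 and Ctss, which the other T cells held too. Cst3, encoding the protease inhibitor cystatin C, stood at 202 against 103 CPM in CD25WT and 156 against 140 CPM in CD25KO. Leaving out cells with any myeloid UMI other than Cst3 left the type 17 medians over the genes measured in each library at 3.06 and 0.25.

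Of 8 B cell genes, 4 had no UMI in CD25WT and 3 none in CD25KO double-positive cells, and the summed level of the list was 209 against 244 CPM in other cells in CD25WT and 402 against 447 CPM in CD25KO. Most of it was Ighm, the immunoglobulin heavy chain constant gene, found in 51.8% of double-positive and 54.0% of other cells in CD25WT and in 63.4% and 60.6% in CD25KO. Igkc, the light chain constant gene, had ratios of 2.03 (1.13 to 2.81) from 2 CD25WT cells and 0.59 (0.06 to 1.07) from 7 CD25KO cells.

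A UMI of the 7 genes of type 17 γδ T cells was found in 9.41% of double-positive against 3.34% of other cells in CD25WT (23.9 against 9.25 CPM) and in 1.22% against 1.01% in CD25KO (2.81 against 3.88 CPM). Cd163l1, Blk and Sox13 were at 0 in them and nearly so in the others. Tcrg-C4, a γ chain constant gene, was also at 0 in the double-positive cells of both libraries. In the others it was at 2.20 and 0.782 CPM, under the level of 3 UMIs in the double-positive cells (4.78 and 4.22 CPM), so its 0 says little. Trdc, the δ chain constant gene, was found in 2 CD25WT cells (2.35%) and no CD25KO cell, against 1.82% and 0.475% of other cells. Tcrg-C1, another γ chain constant gene, was found in 2.35% against 0.852% in CD25WT. 5830411N06Rik, also known from γδ T cells, was found in 4 of 85 double-positive and 2 of 5872 other CD25WT cells, and in no double-positive CD25KO cell. Cd8a and Zbtb16 had no UMI, which says little, since they were as rare in the others. There Cd8a was found in 0.272% and 0.297% of cells, and Zbtb16 stood at 0.117 and 0.029 CPM. Cd8b1 was found in 1 CD25WT and 10 CD25KO cells. In CD25KO that was 12.2% against 5.21% of other cells, or 2.09% against 2.29% at 2000 UMIs. The erythroid genes Hbb-bs, Hba-a1 and Hba-a2 had median log2 ratios of -4.71 and -1.88. The direction in CD25KO turned with the processing: Hbb-bs, at -1.82 there, was at 0.034 with equal weight per cell and at 1.41 without the 5% of cells with most UMIs, and at -4.90 without the double-positive cell holding most of its UMIs. In CD25WT, Hbb-bs was at 0.83 when cells with either gene were taken. The part of any such cells or of free RNA in the results was not tested.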

How the data were processed

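Matrices of UMI counts per gene and barcode for the 2 libraries were used as deposited, without normalization. Per the file headers, Cell Ranger 6.0.0 wrote them, and the submitters' processing notes name mm10 as the build. No source used here names the annotation behind the 32285 genes listed. The 3′ libraries were prepared with the 10x Chromium kit, per the labels' protocols.

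UMIs were summed over double-positive and over other cells of each library and divided by the sum over all genes to give CPM. Log2 ratios carry exact conditional Poisson intervals, and shares of cells carry Clopper-Pearson intervals. Expected shares at 2000 UMIs came from the hypergeometric distribution, without random draws. UMIs are not independent samples of mice, so all intervals cover counting error only. No test was run, since each group had 1 library. No doublet caller was run and no clusters were made. The computations were tested on simulated data with known answers. These were Poisson sums, so the test does not cover genes whose UMIs lie in few cells, such as the 2 histone genes. Calculations used Python 3.11.15 with NumPy 2.4.6, SciPy 1.17.1, pandas 2.3.3 and matplotlib 3.10.9.

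Genes count as measured at a mean of at least 20 CPM over both sets of cells, and as apart at 2-fold. The genes named were the 12 in each direction with the largest ratio shared by both libraries (ranked by the smaller of the 2), the type 17 list, up to 4 genes of each of the other lists with the largest ratios, and the 10 furthest apart between libraries in each direction. Intervals had to leave out 0. Genes of the rule, mitochondrial, ribosomal protein, haemoglobin, receptor segment, sex-linked and unnamed genes were left out of the rankings. Haemoglobin, γδ and other lineage genes, Il2ra, Foxp3, Capg, Nrp1, Lgals1, Lgals3 and Nkg7 are named outside it. The members and the 24 gene lists were chosen with earlier results of these data known. Some genes of these lists are not reported here and were left out of the lists' counts and medians. Promoter windows came from RefSeq (GRCm38.p6) and positions from GENCODE release M21. Alternatives are described at the end.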

Additional observations from a re-analysis of the deposited data

Results flagged for a closer look

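In 4 genes the double-positive cells stood on opposite sides of the other cells in the 2 libraries, each with a counting interval that leaves out 0. Of these, only Il7r counts as measured in both libraries. The mean was 11.6 CPM for Gzmb and 9.61 CPM for G2e3 in CD25WT, and 13.3 CPM for Itgae in CD25KO. How many of all genes lie on opposite sides in this way was not counted. The difference between libraries was not tested, since each group had 1 library. Itgae, the integrin chain CD103, had a log2 ratio of 3.32 (2.76 to 3.84) in CD25WT and -1.47 (-3.10 to -0.24) in CD25KO. Gzmb, encoding the protease granzyme B, had 4.52 (3.51 to 5.47) and -1.87 (-3.08 to -0.88), from 14 UMIs in 5 cells and 8 UMIs in 3 cells. G2e3, a ubiquitin ligase gene, had -2.33 (-5.38 to -0.47) and 0.71 (0.10 to 1.26). Il7r, the IL-7 receptor chain, had 0.95 (0.82 to 1.09) and -0.17 (-0.34 to -0.0031). The CD25KO directions of Il7r and G2e3 turned under some alternatives, among them leaving out the 5% of cells with most UMIs (0.35 and -0.17).

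Outside the filter on Cd3e, Cd3g, Cd79a and Lyz2, 4 of 153 CD25WT cells (2.61%, 0.717 to 6.56) and 3 of 136 CD25KO cells (2.21%, 0.457 to 6.31) also held both genes. Of cells with a Lyz2 UMI, 0 of 22 and 0 of 18 did.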

How the results depend on the processing

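No paired analysis was possible because each group had 1 library, and no replicate could be left out. Across the alternatives, Ccr6 ratios of double-positive over other cells ran from 3.66 to 4.82 in CD25WT and from 1.12 to 2.75 in CD25KO, and Serpinb1a ratios from 4.22 to 5.33 and from 2.40 to 4.30. The cause of the changes below was not tested. Depth limits the sparse genes: Serpinb1a and Il17re rest on 7 and 5 double-positive cells in CD25KO. The median of all genes in CD25WT was 0.16, and -0.04 with totals leaving out ribosomal protein and mitochondrial genes. Cells with a Foxp3 UMI held 19 and 5 members, too few for gene ratios, and cells without myeloid UMIs too few for ratios between libraries.

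The share of double-positive cells in CD25WT and CD25KO was 1.06% and 0.822% with at least 3 UMIs of the pair, 4.05% and 4.11% for either gene, 0.495% and 0.375% at 2000 UMIs, 1.99% and 0.732% among cells with a Foxp3 UMI, and 0.712% and 0.927% among cells with no myeloid or dendritic UMI. It was 1.68% in CD25KO under the stricter cell filter and 1.07% in CD25WT without cells holding Mki67 or Top2a (chosen after seeing the data).

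Genes at least 2-fold higher and lower in CD25WT double-positive cells numbered 358 and 149 with at least 3 UMIs of the pair, 84 and 8 for either gene, 103 and 28 at a minimum of 50 CPM, 1824 and 6754 with no minimum, and 514 and 253 with no myeloid UMI. Those lower numbered 124 with median-of-ratios factors and 238 without ribosomal protein and mitochondrial genes. In CD25KO the counts were 43 and 6 for either gene, 57 and 23 at 50 CPM, 1463 and 6877 with no minimum, and 22 and 25 with depth weighting. Those higher numbered 78 with equal weight per cell, 73 without the 5% of cells with most UMIs and, as choices made after seeing the data, 68 without Mki67 or Top2a cells and 89 without shared barcodes. Those lower numbered 136 with at least 3 UMIs, 252 with no myeloid UMI and 177 without ribosomal protein and mitochondrial genes. Between libraries the counts were 100 and 41 at 50 CPM and 2598 and 1841 with no minimum, with 331 lower without ribosomal protein and mitochondrial genes.

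The type 17 median in CD25WT was 4.78 with no minimum. In CD25KO it was 1.26 with no minimum and 0.50 without the 5% deepest cells.

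Directions that turned were mostly those of Il7r and the cycle genes. Il7r in CD25KO was 0.071 with at least 3 UMIs, 0.14 with equal weight, 0.51 with depth weighting, 0.0030 under the stricter filter, 0.38 without Mki67 or Top2a cells, 0.031 without shared barcodes and 0.35 without the 5% deepest cells. Hist1h2ae in CD25WT was -0.20 with no myeloid UMI, -0.48 under the stricter filter, -0.19 without the 5% deepest cells, and -0.58 without the deepest cell, which is also the cell with most of its UMIs. In CD25KO it was -1.01 with no myeloid UMI, -1.79 without Mki67 or Top2a cells and -2.74 without the 5% deepest cells. Without Mki67 or Top2a cells Birc5 in CD25KO was -0.75, Hist1h1b -0.16 and G2e3 -0.043, and the Rora ratio between libraries was 0.017. Without the 5% deepest cells Hist1h1b in CD25KO was -1.88, Nusap1 -1.53 and G2e3 -0.17. With depth weighting Nusap1 in CD25KO was -0.033 and Ccnb1 -0.28. With no myeloid UMI, Igf2r and Igfbp4 in CD25WT were 0.28 and 0.28, and Itm2a and Foxp3 in CD25KO 0.55 and 0.066. Hbb-bs was 0.83 in CD25WT for either gene, and in CD25KO 0.034 with equal weight and 1.41 without the 5% deepest cells.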

Other observations

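Genes that respond to IL-2 and STAT5 signalling went both ways in CD25WT. Of the 11 genes, the interval lay above 0 for 2 and below 0 for 4 in CD25WT, and below 0 for 4 and above it for none in CD25KO. None of the 10 and 9 measured was 2-fold apart, and the medians were 0.01 and -0.17. Over all genes 4.82% were higher and 1.48% lower by 2-fold or more in CD25WT, and 2.79% and 1.54% in CD25KO. Il2rb, the β chain of the IL-2 receptor, had -0.66 (-1.01 to -0.32) and -0.33 (-0.61 to -0.06). Socs2, an inhibitor of cytokine signalling, had log2 ratios of 0.70 (0.19 to 1.17) and 0.44 (-0.30 to 1.10). Bcl2, which protects from cell death, had -0.95 (-1.20 to -0.71) and -0.68 (-1.03 to -0.36). Of 4 MS4A relatives of the pair measured in each library, none was 2-fold higher. Ms4a4b stood at 1421 against 1559 CPM in CD25WT and 1214 against 1373 CPM in CD25KO, and Ms4a4c had ratios of -2.18 (-3.39 to -1.20) and -0.22 (-0.98 to 0.44). Of interferon response genes, none of 7 and 6 measured was 2-fold apart, and the medians were -0.11 and -0.06.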
